A study of Mus musculus with 4 samples.

Results

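The genes described here are 9 enzymes of glutamine, creatine, glycine, methionine and choline metabolism: Glul, Gatm, Gamt, Gldc, Shmt1, Shmt2, Mat1a, Gnmt and Chdh. They were taken by symbol from a count table of 55401 Ensembl gene models, and all 9 were found in it. Glul and Chdh had been picked because they ranked high in the knockout comparison itself, and the other 7 were chosen with its results known. The knockout comparison is therefore given for these 9 genes as a description, without a test. Expression was measured by poly(A) RNA-seq in mouse tissue beside pancreatic tumours of the Panc02 line, a mouse pancreatic ductal adenocarcinoma line. There were 2 libraries from wild-type mice (WT 1 and WT 2) and 2 from mice in which CRFR1, the receptor for corticotropin-releasing factor, was conditionally knocked out (CRFR1-KO 1 and CRFR1-KO 2). Both genotypes carried the tumour. No source used here names the Cre driver, the strain, the age or whether each library came from its own animal, so the spread behind each p-value is that between libraries and could be technical. By its title and design text the series asks which signalling lies downstream of CRFR1.

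Glutamine synthetase (Glul) joins ammonia to glutamate to make glutamine. Creatine is made in a pair of steps, by arginine:glycine amidinotransferase (Gatm) and guanidinoacetate methyltransferase (Gamt), and the methyl group of the final step comes from S-adenosylmethionine. Mat1a makes S-adenosylmethionine, Gnmt uses it to methylate glycine, Shmt1 (cytosol) and Shmt2 (mitochondria) interconvert serine and glycine, Gldc is the decarboxylating subunit of the glycine cleavage system, and Chdh begins the oxidation of choline to betaine, another methyl donor. Several of these enzymes are best known from liver, and the exocrine pancreas is also known as a site of creatine synthesis and of glycine methylation.

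Promoter sequences are shown for the 4 members whose values span the range of patterns below: Glul, lower in both CRFR1-KO libraries, Gatm, the most abundant per length, Gnmt, the most unequal between the WT libraries, and Gldc, which had no counts. They are RefSeq windows on GRCm38.p6, read 5′ to 3′ on the gene's strand from 250 to 27 bases before the annotated start. Capitals mark CCAAT or its complement ATTGG, and TATAA or its complement TTATA.
Glul, chr1:153899679-153899902, plus strand: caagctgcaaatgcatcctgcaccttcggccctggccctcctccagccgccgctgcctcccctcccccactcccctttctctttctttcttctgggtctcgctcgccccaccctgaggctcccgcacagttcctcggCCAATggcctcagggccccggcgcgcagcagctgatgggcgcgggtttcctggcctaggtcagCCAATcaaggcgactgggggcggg
Gatm, chr2:122611304-122611527, minus strand: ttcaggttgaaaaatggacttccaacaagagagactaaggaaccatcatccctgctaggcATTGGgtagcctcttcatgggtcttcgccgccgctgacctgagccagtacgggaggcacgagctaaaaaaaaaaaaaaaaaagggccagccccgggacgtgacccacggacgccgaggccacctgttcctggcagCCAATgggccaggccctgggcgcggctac
Gnmt, chr17:46729192-46729415, minus strand: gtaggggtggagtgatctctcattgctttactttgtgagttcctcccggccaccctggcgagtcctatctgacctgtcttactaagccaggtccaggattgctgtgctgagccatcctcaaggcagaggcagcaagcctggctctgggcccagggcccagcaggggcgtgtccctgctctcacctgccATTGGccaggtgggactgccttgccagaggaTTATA
Gldc, chr19:30175468-30175691, minus strand: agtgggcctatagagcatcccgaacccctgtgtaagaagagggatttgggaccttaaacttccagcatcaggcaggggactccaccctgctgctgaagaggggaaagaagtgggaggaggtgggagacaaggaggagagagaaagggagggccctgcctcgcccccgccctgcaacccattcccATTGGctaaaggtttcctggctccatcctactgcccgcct
RefSeq windows were found for 8 of the 9 members, in 10 windows. CCAAT (either strand) stood in the window of Glul at 113 and 50 bases before the start, of Gatm at 190 and 55, of Gnmt at 62, of Gldc at 66 and of Shmt1 at 47, and was not found in the windows of Gamt, Shmt2 and Chdh. Of all 32851 mouse windows of the same 224 bases, 31.5% held it. TATAA was found in Gnmt, at 31 bases before the start, and in 20.1% of all windows. The E-box CANNTG was found in the windows of Glul, Gatm, Gnmt and Shmt1 and in 62.6% of all windows. For Chdh it was found at alternative starts but not in the window nearest the gene's start. GTGGGAA, the core sequence bound by RBPJ-family factors, was found for Shmt1 and for an alternative start of Chdh, and in 4.84% of all windows. A match describes the letters in these windows only.

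The libraries held between 63495457 and 71203640 counts. Exocrine pancreas gave a large part of the RNA. The 10 acinar markers, among them the carboxypeptidase gene Cpa1 and the lipase gene Pnlip, took 28.4% to 31.3% of the counts of each library. Crhr1, which encodes CRFR1, had a count of 0 in all 4 libraries, which gives no check of the genotype labels. Among 15131 tested genes, 4 passed the edgeR threshold (Benjamini-Hochberg adjusted p under 0.05) in CRFR1-KO against WT, which is 0.0264%. By log2 fold change 7440 of the tested genes were higher and 7691 lower in CRFR1-KO. Both CRFR1-KO libraries lay above both WT libraries, or both below, for 33.5% of tested genes. Hepatocyte markers were scarce. Of 15 listed, 4 were at 0 throughout, the urea cycle gene Cps1 being one, and Alb (albumin) had between 10 and 85 counts. Most of the list's 597 to 994 counts per library belonged to Ttr (508 to 973 counts), which islet cells also express.

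The members covered a wide span of levels. Levels are given as CPM (counts-per-million on scaled library sizes) and, between genes, as CPM per kilobase of exon, since longer transcripts give more reads. On the per-kilobase scale Gatm was the most abundant (83.2 ± 16.3, SD over the 4 libraries), followed by Gamt (50.0 ± 5.4), Gnmt (38.5 ± 20.1), Mat1a (15.8 ± 3.8), Shmt2 (5.21 ± 0.56), Glul (2.97 ± 1.59), Chdh (2.36 ± 0.57) and Shmt1 (0.436 ± 0.107). Among neighbours in this order, the ranges over libraries overlapped for Gamt and Gnmt, for Shmt2 and Glul and for Glul and Chdh, and did not overlap for the other 4 pairs. Gatm ranked between 102 and 181 among the 15131 tested genes in the 4 libraries and Gamt between 190 and 195, whereas Shmt1 ranked between 9121 and 10883. Gldc passed no filter and was at 0 in every library, so 8 of the 9 members entered the fit across all genes.

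**Figure D1:**
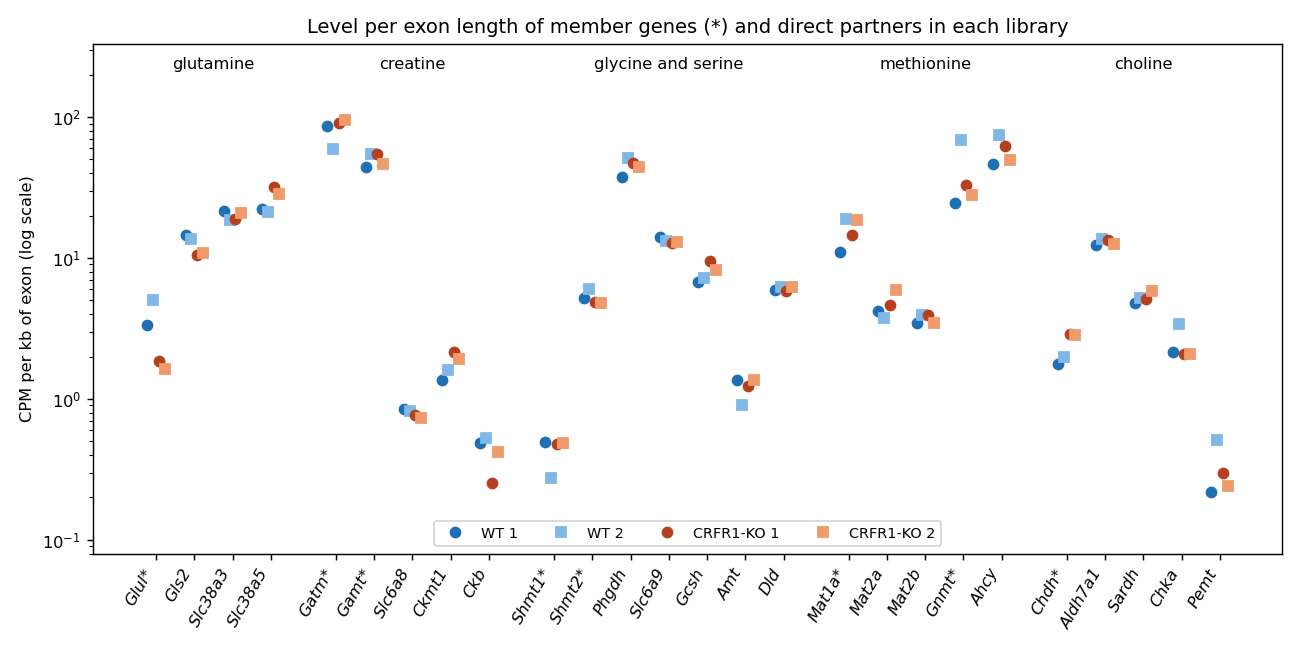
Level of 8 members (marked with an asterisk) and 18 direct partners in each of the 4 libraries, as CPM per kilobase of exon on a log scale, grouped by pathway. Gatm, Gamt, Phgdh, Gnmt and Ahcy sit at the top, and Shmt1, Ckb and Pemt near the bottom.

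For Glul (ENSMUSG00000026473; chromosome 1, 153899944 to 153909723, GRCm38), WT 1 stood at 11.1 CPM, WT 2 at 16.8, CRFR1-KO 1 at 6.13 and CRFR1-KO 2 at 5.42 (counts of 916, 1102, 383 and 355). Both CRFR1-KO libraries lay below both WT libraries, and the CRFR1-KO pair lay closer together than the WT pair. The means were 13.95 ± 4.07 and 5.77 ± 0.50 CPM (SD over the 2 libraries of each genotype), a log2 fold change of -1.27 (SE 0.24), or 2.41-fold lower in CRFR1-KO. Leaving out each library in turn gave between -1.54 (without WT 1) and -0.94 (without WT 2) on the log2 scale. Glul shares exon bases with the microRNA gene Mir8114, which had a count of 1 in each library, and how reads in the shared bases were assigned is not known here. In bulk tissue, fewer cells of a type and less RNA per cell cannot be told apart. Markers of 3 other cell types were also lower in both CRFR1-KO libraries by their summed level. Of 10 fibroblast markers 9 were lower in CRFR1-KO, and their levels summed to 495 CPM (WT 1), 240 (WT 2), 166 (CRFR1-KO 1) and 187 (CRFR1-KO 2). All 8 macrophage markers were lower, with sums of 125, 93.0, 45.5 and 72.3 CPM in the same order. Of 6 duct markers 4 were lower, with sums of 166, 102, 71.2 and 74.6 CPM and a median log2 fold change of -0.45. All 3 sums were higher in WT 1 than in WT 2, whereas Glul was higher in WT 2, and their part in the Glul values was not tested. Every marker of these 3 lists was detected, and 0 of them passed the edgeR threshold.

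Gls2, the liver-type glutaminase gene, whose enzyme runs the opposite reaction, was above Glul in every library, with the ratio per kilobase in WT 1 at 4.37, WT 2 at 2.67, CRFR1-KO 1 at 5.66 and CRFR1-KO 2 at 6.66. The WT libraries held 50.6 and 47.0 CPM of Gls2 and the CRFR1-KO libraries 36.3 and 37.7, without overlap (log2 fold change -0.40, SE 0.17). The glutamine transporter gene Slc38a5 was the reverse, at 49.8 and 47.2 CPM in the WT pair and 71.6 and 63.7 in the CRFR1-KO pair (log2 fold change 0.48, SE 0.17). Slc38a3, another glutamine transporter gene, had means of 106 ± 11 (WT) and 105 ± 8 CPM (CRFR1-KO), a log2 fold change of -0.02. The amino acid exchanger gene Slc7a5 ranged from 32.2 CPM (WT 1) to 74.6 CPM (WT 2) among WT libraries and from 19.8 to 29.2 CPM among CRFR1-KO libraries (log2 fold change -1.12, SE 0.39). None of the 21 tested genes of the glutamine and glutamate list passed the edgeR threshold. Before adjustment 1 was higher and 3 lower at an edgeR p under 0.05, against 1.71% and 3.15% of all tested genes. Slc7a5 had the list's smallest edgeR p adjusted over all genes (0.985). Without WT 1, Slc7a5 did pass (log2 fold change -1.61, edgeR adjusted p = 0.0465), as did 0.253% of all genes in that fit, and without WT 2 its log2 fold change was -0.39.

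Both enzymes of creatine synthesis were abundant, with Gatm above Gamt per kilobase in all 4 libraries. For Gatm (ENSMUSG00000027199; chromosome 2, 122594467 to 122611303), WT 1 stood at 259.8 CPM, WT 2 at 178, CRFR1-KO 1 at 272 and CRFR1-KO 2 at 288. WT 2 was the low library, and WT 1 lay near the CRFR1-KO pair. The counts were 21486, 11674, 17025 and 18852 in the same order, with WT 1 the highest. Whether WT 1 lay below the CRFR1-KO pair therefore depended on the scaling. The log2 fold change was 0.35 (SE 0.23), and 0.20 (SE 0.29) when libraries were scaled on their totals. It went to 0.65 without WT 1 and to 0.11 without WT 2. For Gamt (ENSMUSG00000020150; chromosome 10, 80258151 to 80261012), WT 1 stood at 63.7 CPM, WT 2 at 78.9, CRFR1-KO 1 at 78.7 and CRFR1-KO 2 at 67.5, with overlapping genotypes. Its log2 fold change was 0.04 (SE 0.20), below its SE, and turned to -0.08 when libraries were scaled on their totals. The ratio of Gatm to Gamt per kilobase of exon put WT 1 at 1.96, WT 2 at 1.09, CRFR1-KO 1 at 1.66 and CRFR1-KO 2 at 2.05. Genes that handle finished creatine were much scarcer. Gatm lay 72.4 to 131 times above the creatine transporter gene Slc6a8 per kilobase, and Ckmt2, a mitochondrial creatine kinase gene, had no counts. Ckmt1, the other mitochondrial creatine kinase gene, averaged 3.71 ± 0.44 (WT) and 5.09 ± 0.44 CPM (CRFR1-KO), a log2 fold change of 0.46 (SE 0.22), and the brain-type kinase gene Ckb averaged 1.47 ± 0.08 and 0.979 ± 0.344 CPM (log2 fold change -0.59, SE 0.42). For Ckb the log2 fold change was -0.27 without CRFR1-KO 1 and -0.99 without CRFR1-KO 2. The creatine and arginine list had 9 tested genes, of which 0 passed in edgeR. Before adjustment 1 was lower (edgeR p under 0.05), against 3.15% of all tested genes. It was the arginase gene Arg2, with WT 1 at 1.41 CPM, WT 2 at 4.11, CRFR1-KO 1 at 1.34 and CRFR1-KO 2 at 0.93.

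**Figure D2:**
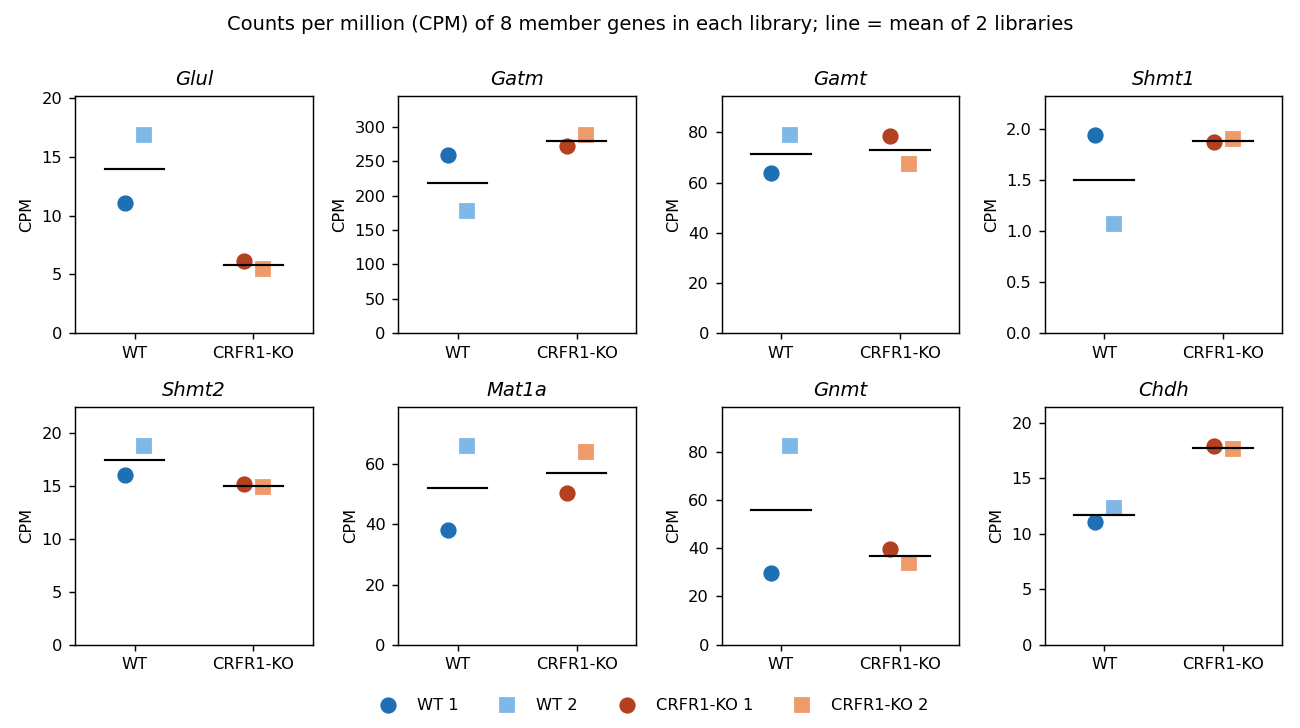
CPM of 8 members in each library, with WT and CRFR1-KO on the horizontal axis and a line at the mean of 2 libraries. On this scaled measure the genotypes do not overlap for Glul, Gatm, Shmt2 and Chdh, and WT 2 stands apart for Gnmt and Shmt1. Before scaling, WT 1 had the highest Gatm count.

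In glycine metabolism, the mitochondrial hydroxymethyltransferase gene Shmt2 outweighed its cytosolic relative. For Shmt2 (ENSMUSG00000025403; chromosome 10, 127517123 to 127522444), WT 1 stood at 16.1 CPM, WT 2 at 18.7, CRFR1-KO 1 at 15.1 and CRFR1-KO 2 at 14.9. Its genotypes did not overlap, but the gap between WT 1 and CRFR1-KO 1 was smaller than that between the WT libraries (log2 fold change -0.21, SE 0.17, and -0.093 without WT 2). Shmt1 (ENSMUSG00000020534; chromosome 11, 60788104 to 60811718) was thinly covered, with 160, 70, 117 and 124 counts in WT 1, WT 2, CRFR1-KO 1 and CRFR1-KO 2, or 1.93, 1.07, 1.87 and 1.89 CPM. WT 2 alone was low, and without it the log2 fold change of 0.32 (SE 0.39) became -0.04. Per kilobase of exon Shmt2 lay 9.82 to 10.4 times above Shmt1 in 3 libraries and 21.9 times above it in WT 2.

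Gldc (ENSMUSG00000024827; chromosome 19, 30098447 to 30175429) was at 0 in each library. Taking 3 counts as the limit that a count of 0 allows, its level could reach 0.0363 CPM in the most and 0.048 CPM in the least deeply scaled library. This limit covers counting error only. It takes each count as 1 independent observation, which is not settled for these data, and would be too low otherwise. The other subunits of the glycine cleavage system were all detected. Gcsh, the hydrogen carrier, averaged 11.0 ± 0.6 (WT) and 13.96 ± 1.39 CPM (CRFR1-KO), a log2 fold change of 0.35 (SE 0.17). Amt, the aminomethyltransferase, stood at 2.78 ± 0.79 and 3.18 ± 0.23 CPM, and Dld, a dehydrogenase that several mitochondrial complexes share, at 22.5 ± 0.7 and 22.2 ± 0.9 CPM. Genes around serine differed widely in level. Phgdh, which begins serine synthesis, lay 7.27 to 9.77 times above Shmt2 per kilobase, and the glycine transporter gene Slc6a9 lay 2.19 to 2.74 times above it, whereas Psph, which completes serine synthesis, was at 0.47 to 0.82 CPM per kilobase. Slc6a9 was also steady across libraries, between 65.2 and 72.8 CPM. Of 24 tested genes of the glycine, serine and folate list, 11 were higher, 13 lower and 0 passed in edgeR (0 before adjustment at p under 0.05). Tdh, encoding threonine dehydrogenase, which starts a route from threonine to glycine, was named after its values were seen. Its levels put WT 1 at 6.82 CPM, WT 2 at 59.1, CRFR1-KO 1 at 23.7 and CRFR1-KO 2 at 20.7, so both CRFR1-KO libraries lay between the WT libraries. Its log2 fold change of -0.57 (SE 0.78) did not pass in edgeR. Without WT 1 it was called lower (-1.41, edgeR adjusted p = 0.0249) and without WT 2 higher (1.71, edgeR adjusted p = 0.0135), in fits that called 0.253% and 0.43% of all genes.

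In the methionine cycle, Gnmt differed more between the WT libraries than any other member. For Gnmt (ENSMUSG00000002769; chromosome 17, 46725664 to 46729168), WT 1 stood at 29.7 CPM, WT 2 at 82.3, CRFR1-KO 1 at 39.7 and CRFR1-KO 2 at 34.0. WT 2 was 2.77 times WT 1, and the CRFR1-KO libraries lay between them. The difference of 1.46 between WT 2 and WT 1 on the log2(CPM + 0.5) scale lay outside the range that held the middle 95% of tested genes (-0.97 to 0.87). The log2 fold change for the knockout was -0.60 (SE 0.42), and it became -1.16 without WT 1 and 0.32 without WT 2, so its direction rested on WT 2. For Mat1a (ENSMUSG00000037798; chromosome 14, 41105035 to 41124412), WT 1 stood at 38.3 CPM, WT 2 at 66.0, CRFR1-KO 1 at 50.4 and CRFR1-KO 2 at 64.2, with overlapping genotypes (log2 fold change 0.14, SE 0.28). Its log2 fold change turned to -0.20 without WT 1 and to -0.04 without CRFR1-KO 2, and was 0.59 without WT 2. Mat1a is known as the liver form of methionine adenosyltransferase and Mat2a as the form of other tissues, and here Mat1a lay 2.61 to 5.07 times above Mat2a per kilobase. Gnmt lay 1.52 to 3.59 times above Mat1a on the same scale. Ahcy, which removes the product of these methylations, was at 58.2 ± 13.1 CPM per kilobase over the 4 libraries, above Mat1a in each. Mat2a averaged 17.9 ± 1.5 (WT) and 23.7 ± 4.1 CPM (CRFR1-KO), a log2 fold change of 0.41 (SE 0.19, and 0.23 without CRFR1-KO 2), and Mat2b, its regulatory subunit gene, averaged 18.6 ± 1.6 and 18.5 ± 1.6 CPM. Of 13 tested genes of the methionine list, 5 were higher, 8 lower and 0 passed in edgeR (0 before adjustment at p under 0.05).

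For Chdh (ENSMUSG00000015970; chromosome 14, 30009023 to 30040527), WT 1 stood at 11.0 CPM, WT 2 at 12.3, CRFR1-KO 1 at 17.9 and CRFR1-KO 2 at 17.7. The 2 libraries of each genotype lay close together and the genotypes did not overlap. The means were 11.6 ± 0.9 and 17.8 ± 0.1 CPM (SD over the 2 libraries of each genotype), a log2 fold change of 0.61 (SE 0.16), or 1.52-fold higher. It lay between 0.53 and 0.69 when single libraries were left out, and at 0.49 when libraries were scaled on their totals. All 10 acinar markers were measured higher in CRFR1-KO as well, with a median log2 fold change of 0.29 and 0 past the edgeR threshold. Their sums overlapped between genotypes, at 255945 and 309010 CPM in the WT pair and 341157 and 303609 in the CRFR1-KO pair. These sums depended on the scaling factors, which were 1.18 (WT 1), 0.919 (WT 2), 0.892 (CRFR1-KO 1) and 1.03 (CRFR1-KO 2). As a share of unscaled counts the acinar markers took 30.3% and 28.4% in the WT pair and 30.4% and 31.3% in the CRFR1-KO pair. Of 7 islet markers 6 were higher, with a median log2 fold change of 0.98 and 0 past the threshold, and their sums also overlapped: WT 1 lay at 39.9 CPM, WT 2 at 269.5 and the CRFR1-KO pair at 235 and 292. The part of either list in the Chdh values was not tested. The next enzyme gene after Chdh, Aldh7a1, which makes betaine from betaine aldehyde, lay at 67.1 ± 4.5 and 66.9 ± 3.1 CPM (log2 fold change 0.00, SE 0.17). Per kilobase, Aldh7a1 lay 6.95 and 6.88 times above Chdh in the WT libraries and 4.65 and 4.40 times above it in the others. The betaine-using methyltransferase gene Bhmt, its relative Bhmt2 and the dimethylglycine dehydrogenase gene Dmgdh had a count of 0 in every library. In contrast, the sarcosine dehydrogenase gene Sardh stood at 27.1 ± 1.7 (WT) and 29.7 ± 2.5 CPM (CRFR1-KO). On the competing route to phosphatidylcholine, the choline kinase gene Chka had WT 1 at 26.0 CPM, WT 2 at 40.8 and each CRFR1-KO library at 25.2 (log2 fold change -0.41, SE 0.23). Without WT 2 the log2 fold change of Chka was -0.043, and without WT 1 it was -0.69. Of 21 tested genes of the choline and betaine list, 6 were higher, 15 lower and 0 passed in edgeR (0 before adjustment at p under 0.05). Over all tested genes, 7440 were higher and 7691 lower.

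**Figure D3:**
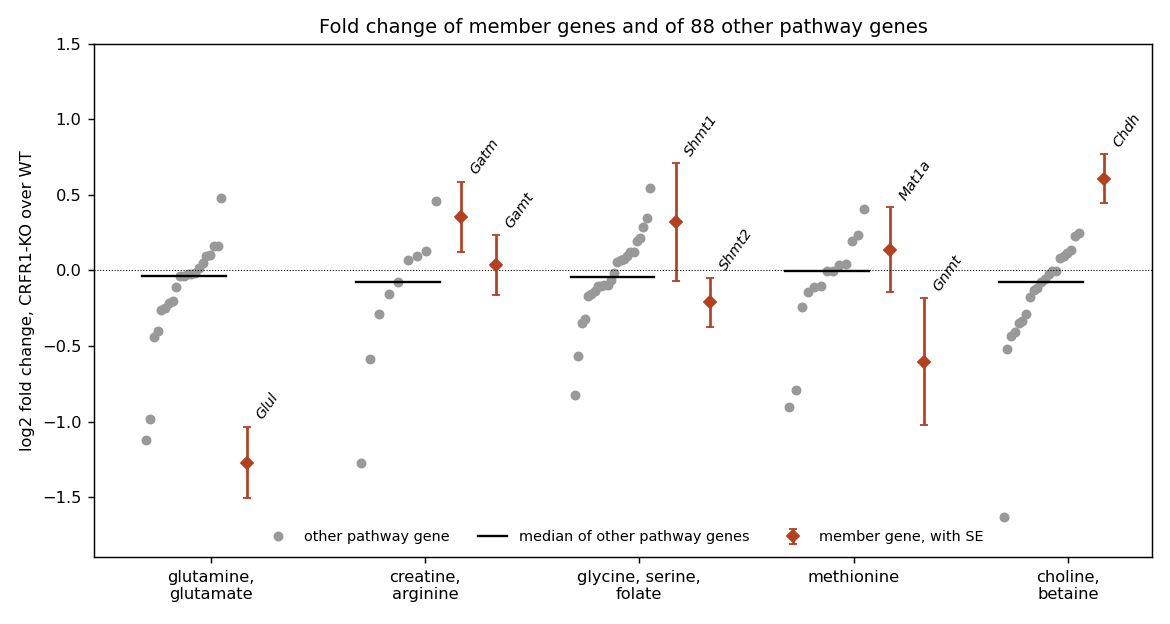
Log2 fold change of CRFR1-KO over WT for 8 members (diamonds with SE) and 88 other tested genes of the same pathways (grey points, with a line at each group's median). The group medians lie between -0.08 and 0.00, Glul lies below all other genes of its group and Chdh above all other choline genes.

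Across the members, 4 of 8 had genotypes that did not overlap in scaled CPM, against 33.5% of all tested genes. Glul and Shmt2 were lower in CRFR1-KO, and Gatm and Chdh higher, though before scaling WT 1 had the highest Gatm count. None of the 8 passed the edgeR threshold, against 0.0264% of all tested genes. Of the 8, only Glul passed in the DESeq2 Wald test, against 0.326% of the genes with an adjusted p there. In edgeR without WT 1 the log2 fold change of Glul was -1.54. The choice of genes used this comparison, so nothing is read from these counts or calls. The list of other pathway genes was made by function. It held 100 symbols in 101 gene models, of which 88 were tested and 9 had no counts. Of the 88, 33 were higher and 55 lower in CRFR1-KO, with a median log2 fold change of -0.05 against -0.01 over all tested genes. Of all 15131 tested genes, 7440 were higher and 7691 lower. In edgeR 0 passed over all genes, and 5 had a p under 0.05 before adjustment, near the 4.86% of all tested genes (735 genes) that did: Slc38a5 higher, and Slc7a5, Gls2, Arg2 and Prodh lower. DESeq2 and limma-voom also called 0 (5 and 3 before adjustment). For Slc7a5, Arg2 and Prodh WT 2 was the highest library. Prodh overlapped between genotypes, with WT 1 at 7.15 CPM, WT 2 at 18.4, CRFR1-KO 1 at 7.42 and CRFR1-KO 2 at 5.48. Both CRFR1-KO libraries lay above both WT libraries for 8 of the 88 and below for 17, against 16.6% and 16.9% of all tested genes.

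Between the WT libraries, WT 2 was at least 2-fold above WT 1 on the log2(CPM + 0.5) scale for 6 of the 88 pathway genes (6.82%), against 1.53% of all tested genes, and at least 2-fold below for 1 (1.14%, against 2.29%). The 6 were the threonine and proline dehydrogenase genes Tdh and Prodh, the arginase gene Arg2, Slc7a5, the alanine aminotransferase gene Gpt2 and the cystathionine lyase gene Cth, and among the members Gnmt did the same. The gene below was Cdo1, a cysteine dioxygenase gene. These genes were named after their values were seen. The WT libraries also differed in cell type markers, with the islet sum lower and the fibroblast, macrophage and duct sums higher in WT 1 (values above), and the part of these in the difference was not tested.

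**Figure D4:**
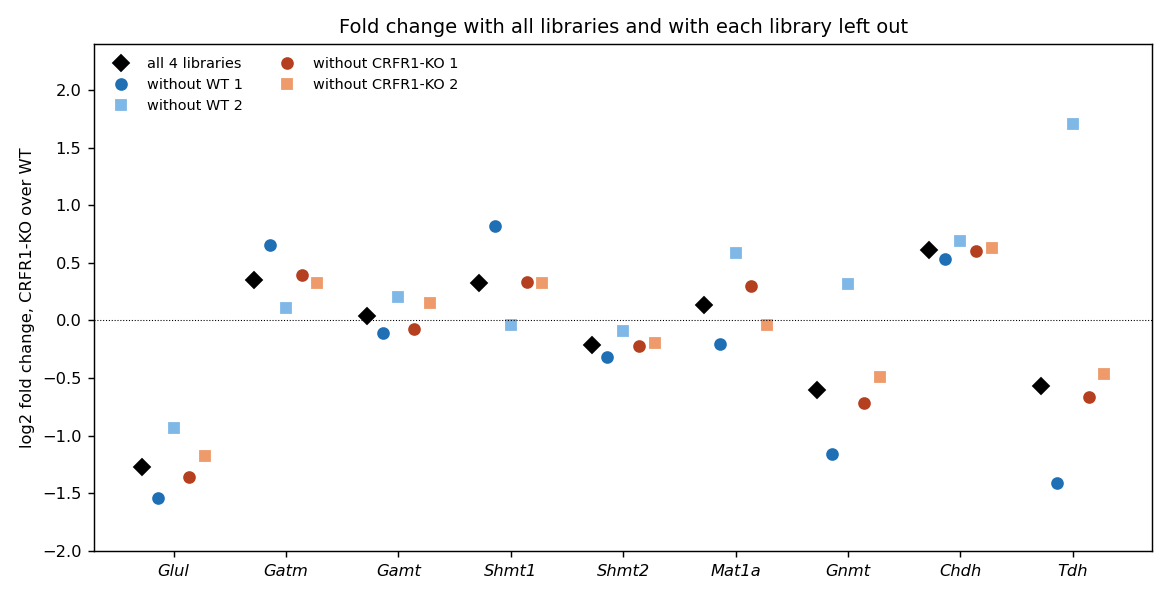
Log2 fold change of CRFR1-KO over WT for 8 members and for Tdh, with all 4 libraries (black diamonds) and with each library left out. Glul and Chdh keep their sign in all 5 fits, whereas Gnmt, Mat1a, Shmt1, Gamt and Tdh cross 0 when 1 library is left out.

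Genes with the most similar profile over the 4 libraries were sought among named protein-coding genes with a mean of at least 5 CPM, by the distance between centred log2(CPM + 0.5) values. The nearest to Glul were Gdf10, a bone morphogenetic protein family gene, Gadd45g, a growth arrest gene, and Rps27rt, a ribosomal protein gene copy whose reads may be shared with its parent gene (Pearson's r of 0.9998, 0.999 and 0.989 over 4 libraries). The nearest to Gatm were Trim27, Cyth2 and Ccdc117, and to Chdh Med1, Gnl3l and Trim11. For Gnmt, added after its values were seen, they were Sgk1, a serum and glucocorticoid regulated kinase gene, the thiamine transporter gene Slc19a2 and Ccdc9b. For Sgk1, WT 1 stood at 11.5 CPM, WT 2 at 34.4, CRFR1-KO 1 at 18.2 and CRFR1-KO 2 at 14.8. With 4 libraries such likeness is common: r exceeded 0.95 for 133 of 5142 genes with Glul, 211 of 5141 with Gatm, 134 with Chdh and 253 with Gnmt.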

How the data were processed

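Per the labels' protocols, mRNA was captured with oligo(dT) and made into dUTP-marked stranded libraries. The authors deposited whole-number counts per Ensembl gene and library, without normalization. FastQC, DESeq2 and edgeR are named in the submitters' processing notes without a version or role; no source used here gives the aligner, counting program, strand setting or genome build. Symbols, positions and exon lengths come from GENCODE M21 (GRCm38), which held a symbol for 55141 of 55401 identifiers, and promoters from RefSeq. Each column was tied to a library by its name in the labels, and no library duplicated another (smallest chi-square per degree of freedom 44.5).

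Genes were fitted with edgeR 4.0.16 in R 4.3.3 (trimmed mean of M values scaling, default filterByExpr, quasi-likelihood F test, two-sided, genotype as the sole term). P-values were adjusted by Benjamini-Hochberg over 15131 genes at 0.05, and the SE was taken from the F statistic. An exact permutation test of 2 libraries against 2 cannot go below p = 0.333, so none was used. Alternatives were other scalings and filters, DESeq2 1.42.0, limma-voom (limma 3.58.1), a replicate block, summed exon-sharing models, counts divided by 4 and leaving out each library. In every library the count 4 was more frequent than 3 or 5 (913 genes against 349 and 242 in WT 1), so what 1 deposited count stands for is not settled. The edgeR step was tested on simulated data with known fold changes before use. It called 25.8% of genes with a 2-fold change, 75.4% of those with a 4-fold change and 0.0167% of unchanged genes. Most 2-fold changes were thus missed in the simulated data.

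The 9 members, the pathway and marker lists and the alternatives were chosen with earlier results of these data known. Genes named from the pathway list were 27 direct partners of the 9 enzymes (1 more of the rule is not reported here), any gene past the threshold and up to 3 per role by smallest p. Any other gene was named after its values were seen.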

Additional observations from a re-analysis of the deposited data

How the results depend on the processing

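The count of 4 genes past the threshold became 59 with the DESeq2 Wald test, 0 with limma-voom (692 at an unadjusted p under 0.05) and 0 when exon-sharing models were summed (701 in edgeR). It lay between 0 (without CRFR1-KO 2) and 69 (without WT 2) when single libraries were left out. The count of pathway genes past the threshold stayed at 0 under every alternative with all 4 libraries, and leaving out single libraries gave between 0 and 2 (Slc7a5 and Tdh without WT 1, Tdh without WT 2). A lone library left in a group is assumed to vary like the other group. Scaling on library totals moved the median log2 fold change of all genes from -0.01 to -0.13.

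Among the members, Glul, Gatm, Shmt2 and Chdh kept their sign in all 15 alternatives, whereas Gamt, Shmt1, Mat1a and Gnmt changed sign in some. The alternatives refit the same libraries, and the members were chosen with this comparison known, so a kept sign is no independent support. Pathway genes not called with all 4 libraries changed sign as follows, in log2 fold change, and the cause was not tested. Leaving out single libraries took Psat1 from -0.51 to 0.32, Pemt from -0.92 to 0.30, Ahcy from -0.41 to 0.28, Mat2b from -0.092 to 0.092, Aldh7a1 from -0.070 to 0.071, Slc38a3 from -0.12 to 0.089, Dld from -0.050 to 0.028, Phgdh from -0.15 to 0.30, Psph from -0.12 to 0.65, Amt from -0.064 to 0.52, Mthfd2 from -0.62 to 0.064, Slc38a2 from -0.22 to 0.22 and Tdh from -1.41 to 1.71. Phgdh was at -0.048 on library totals, and Tdh at 0.16 in limma-voom.

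The replicate numbers are shared only as numbers: the WT and CRFR1-KO differences between numbers 1 and 2 correlated at -0.07 over genes. With the replicate block 5 genes passed, 0 of them pathway genes, and Tdh stood at 0.13 and Slc38a2 at 0.00042.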
